A study of Mus musculus with 11 samples.

Results

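The forebrain libraries of this series were compared by how much of each library fell on predicted gene names, meaning symbols of the form Gm plus a number, LOC plus a number, or a clone name ending in Rik. The 8 cortex and hippocampus libraries with agreeing region labels were selected on that share: 3 libraries with more than 15% of their counts on predicted names form the high set (hippocampus 3, cortex 3 and hippocampus 4), and the other 5 form the low set (cortex 1, cortex 2, hippocampus 1, hippocampus 2 and hippocampus 5). These 8 are part of 11 libraries in all. The remaining 3 are 2 cerebellum libraries and 1 library whose title names cortex while its tissue label names hippocampus. The sets are defined by a measured value and are not groups of the study, so all values of high against low are descriptions without a test.

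All libraries came from mouse brain at postnatal day 13. The labels give no strain, genotype or sex and no treatment of the animals. Ground tissue was crosslinked with 3 doses of 400 mJ at 254 nm, FMRP was immunoprecipitated, and the RNA recovered after proteinase K was made into small RNA libraries. Whether libraries of 1 region came from separate animals or from pools is not stated, so spreads between libraries may be technical. No input library and no library from tissue without FMRP was analysed here.

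FMRP, the protein encoded by Fmr1 and lost in fragile X syndrome, binds mRNA in neurons and associates with polyribosomes. Crosslinking and immunoprecipitation recovers the RNA fragments held by the protein, together with some RNA that was not bound. The mRNAs known for FMRP binding in brain are mostly long and code for cytoskeletal, synaptic, ubiquitin ligase and chromatin proteins. Predicted gene names mostly stand for weakly expressed loci with little functional annotation.

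Totals ran from 11898 counts in cortex 3 to 117322 in hippocampus 3 within the high set, and from 21531 in hippocampus 5 to 82567 in hippocampus 1 within the low set. Hippocampus 1 and hippocampus 2 agreed within sampling noise and were summed and counted as 1 sample, written hippocampus 1+2, which leaves 3 high and 4 low samples. Markers of telencephalic excitatory neurons held 0.381% to 0.687% of the counts outside predicted names in these 7 samples, against 0.149% and 0.175% in the cerebellum libraries. Markers of cerebellar granule cells held 0.0733% to 0.139%, against 1.02% and 0.833% in cerebellum. The forebrain label therefore matched the markers in both sets. Intervals given below are 95% Wilson intervals and, like detection floors, cover counting error only.

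Predicted names held 18.8% of all counts in hippocampus 3 (95% interval 18.6% to 19.1%), 18.4% in cortex 3 (17.7% to 19.1%) and 17.8% in hippocampus 4 (17.3% to 18.3%). In the low set the share was 5.54% in cortex 2, 6.67% in hippocampus 5, 6.76% in cortex 1, 11.3% in hippocampus 1 and 12.6% in hippocampus 2. The nearest values on either side of the 15% threshold were thus 17.8% and 12.6%. The low set itself lay in 2 bands, with the pair of hippocampus libraries (which share a title code) about midway between the high set and the other low libraries. The high set held 1 cortex library and 2 hippocampus libraries, and 2 of its members (cortex 3 and hippocampus 4) had low counterparts of the same region and title code (cortex 2 and hippocampus 5). What the title code and the letter before it (s or p) stand for is not given in the labels.

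The table held 11494 predicted rows, of which 8034 were Gm names, 1409 LOC names and 2051 Rik names. RefSeq classed 72.2% of them as long noncoding RNA and 9.48% as protein-coding, and 15.5% had no match. Most of the difference lay in the noncoding rows: predicted long noncoding RNAs held 12.8%, 12.5% and 12.1% of all counts in hippocampus 3, cortex 3 and hippocampus 4, against 2.83% to 7.43% in the 4 low samples. The rows without a match also separated, at 3.52%, 3.23% and 2.90% against 0.902% to 1.96%. Predicted rows that RefSeq classes as protein-coding overlapped narrowly between the sets, at 2.15% to 2.32% in the high samples and 1.68% to 2.16% in the low. In the pairs of 1 region and title code they were higher in the high library, at 2.32% against 1.68% in cortex and 2.31% against 1.86% in hippocampus. These shares are part of the measure that chose the sets.

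**Figure D1:**
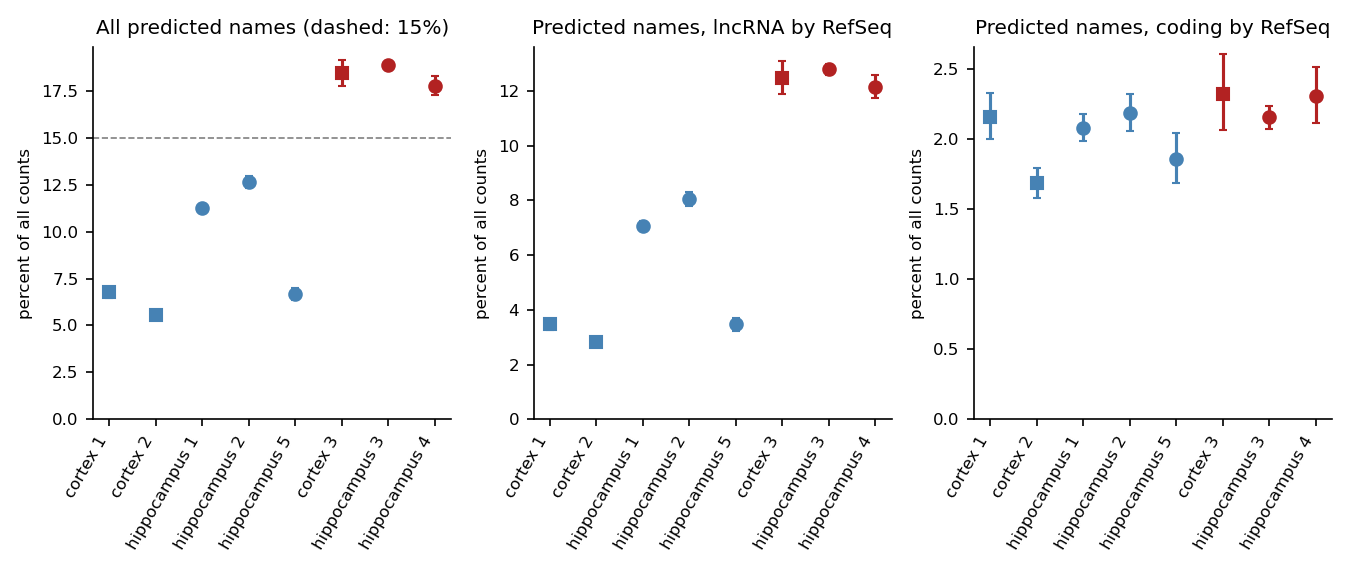
Percent of all counts on predicted names (left), on predicted names classed as long noncoding RNA by RefSeq (middle) and on those classed as protein-coding (right), for the 5 low (blue) and 3 high (red) libraries. Squares are cortex, circles hippocampus, bars 95% Wilson intervals; the sets separate in the left and middle panels, while the coding rows lie between 1.68% and 2.32%.

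The predicted counts of the high set were spread thinly over many rows. The 10 highest predicted rows held 1.97%, 3.65% and 3.72% of the predicted counts in hippocampus 3, cortex 3 and hippocampus 4, against 7.10% in hippocampus 1+2 and at least 17.3% in the other low samples. The same held for whole libraries: the 100 highest rows of each sample took 6.66% to 8.96% of all counts in the high set and 14.0% to 20.1% in the low set. At an equal depth of 11898 counts, 7907 rows had a count in hippocampus 3, 7129 in cortex 3 and 7527 in hippocampus 4. At that depth the low samples reached 5003 rows in cortex 1, 5109 in cortex 2, 5135 in hippocampus 5 and 6302 in hippocampus 1+2. Rows outside predicted names, which the selection did not count, showed the same order at equal depth, with 5447 to 6062 rows in the high samples and 4415 to 5158 in the low.

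**Figure D2:**
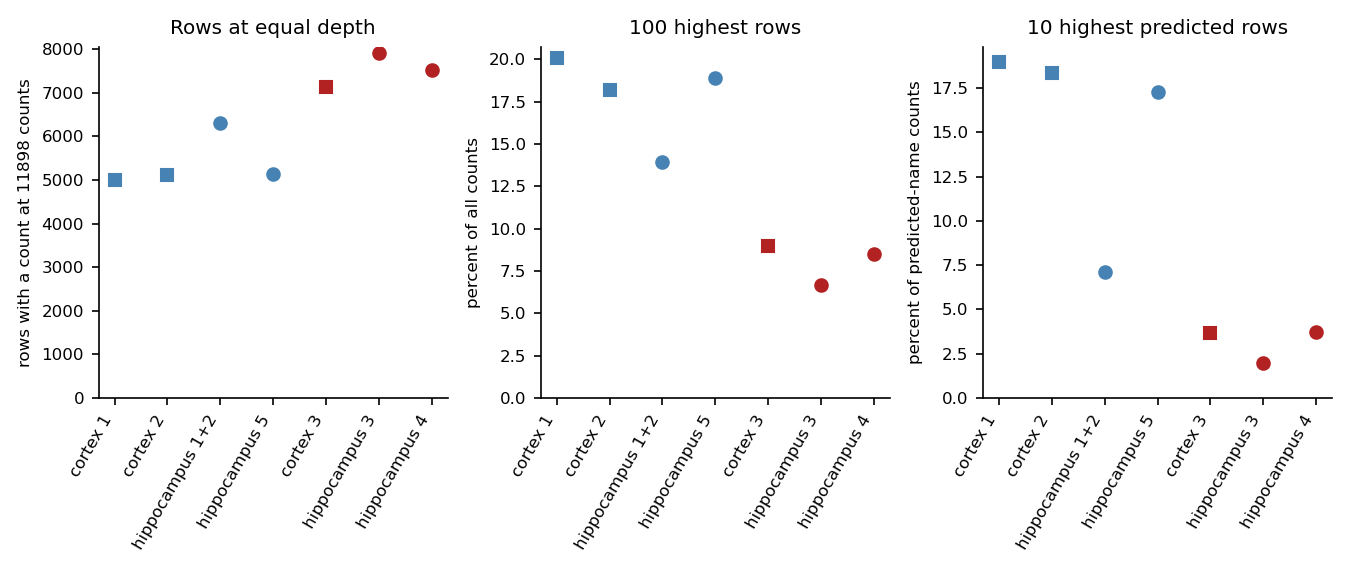
Rows with a count when each sample is reduced to 11898 counts (left), percent of counts on the 100 highest rows (middle) and percent of predicted-name counts on the 10 highest predicted rows (right), for 4 low (blue) and 3 high (red) samples. Squares are cortex and circles hippocampus; no high sample overlaps a low one in any panel.

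Of the 10 predicted rows of highest mean level in the high set, 3 were lower there without overlap, 1 was higher and 6 overlapped. These rows were picked by their level in the high set, among the names that chose the sets. No share over all predicted rows was taken, so they are given as values only. Gm15800, one of the 3 lower rows and listed by RefSeq as Hectd4, a gene for a large ubiquitin ligase on chromosome 5 (mm10, 121219513 to 121368577), had 563, 1597 and 1139 CPM of all counts (CPM, counts per 1000000) in hippocampus 3, cortex 3 and hippocampus 4. In cortex 1, cortex 2, hippocampus 1+2 and hippocampus 5 it had 3613, 3101, 2433 and 2833 CPM, so this predicted name was lower in every high sample. 2610507B11Rik, a coding gene on chromosome 11, had 435, 504 and 273 CPM in the high samples against 1649 to 3646 CPM in the low. D430041D05Rik, a coding gene on chromosome 2, was also lower without overlap (392, 252 and 182 CPM against 418 to 1270 CPM).

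The 1 higher row was Gm33989, a predicted coding gene on chromosome 7, with 188, 336 and 228 CPM against 0 to 108 CPM, which rests on 22, 4 and 5 counts. Gm22496 and Gm24463 are shorter than 100 bases in GENCODE, though RefSeq gives the name Gm24463 to a longer noncoding RNA, and the counts do not tell these models apart. Their sequences from the GENCODE transcripts of the mm10 build are shown because both hold the letter pairs of box C/D small nucleolar RNAs, the guides of ribose methylation. Capitals mark the first TGATGA and the last CTGA on the transcript strand.

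Gm22496: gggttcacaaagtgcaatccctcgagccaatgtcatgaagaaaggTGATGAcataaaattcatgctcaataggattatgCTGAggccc

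Gm24463: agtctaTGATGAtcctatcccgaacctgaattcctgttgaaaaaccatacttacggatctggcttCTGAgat

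Gm22496 lies on chromosome 7 and is 88 bases long, and Gm24463 lies on chromosome 9 and is 72 bases long. The marked TGATGA starts at base 46 in Gm22496, far from its start, and at base 7 in Gm24463. The letters alone do not show that the marked stretches act as these boxes. Both motifs in that order occur in 70.0% of the 454 GENCODE small nucleolar RNA transcripts of 60 to 100 bases and in 0.334% of the 1799 other transcripts of that length. Gm24463 had 364.6 CPM in hippocampus 4 and 504 CPM in cortex 3 but 8.52 CPM in hippocampus 3, on 8, 6 and 1 counts. The low samples had 232 and 125 CPM in hippocampus 5 and cortex 2 and 7.67 and 0 CPM in hippocampus 1+2 and cortex 1. Gm24463 was therefore higher in all 4 samples whose title starts with p than in the 3 that start with s, across both sets. Gm22496 followed a similar order, with 336 and 456 CPM in the high p samples, 197 and 92.9 CPM in the low p samples and 51.1 to 65.1 CPM in the s samples. In cortex 3, hippocampus 5 and cortex 1, 1 count equals 84.0, 46.4 and 32.6 CPM, so the order of Gm22496 also rests on few counts.

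Annotated small nucleolar RNAs outside predicted names split in the same way. Their 85 rows held 0.0287% to 0.0314% of the counts outside predicted names in the 3 s samples and 0.102% to 0.166% in the 4 p samples, and the high and low sets overlapped. Small structural RNAs, a list of ribosomal, 7SK and Y RNAs, ranged from 0.206% to 0.258% in the s samples and from 0.340% to 0.753% in the p samples. Both classes thus separated by the title's first letter and not by the share of predicted names.

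Outside predicted names, 41 name classes and gene lists had rows in the table, and their shares were taken over the counts left after predicted names were removed. In 7 of them all high samples lay above all low samples, in 13 all high samples lay below, and 21 overlapped. Above were olfactory and vomeronasal receptors, keratins, names marked as pseudogenes, histones, zinc finger proteins, microglia markers, and endothelial and mural markers. Below were the known FMRP-bound mRNAs, microtubule and axonal transport genes, kinesins, ankyrins and spectrins, giant ubiquitin ligases, presynaptic genes, postsynaptic scaffold genes, voltage-gated calcium and sodium channels, chromatin regulators, translation factors, ubiquitin-specific proteases, telencephalic excitatory markers and housekeeping genes. The lists share members, so these are not separate results. With all counts as the denominator the split was 5 above and 14 below: olfactory receptors and zinc finger proteins then overlapped, and glutamate receptor genes lay below.

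**Figure D3:**
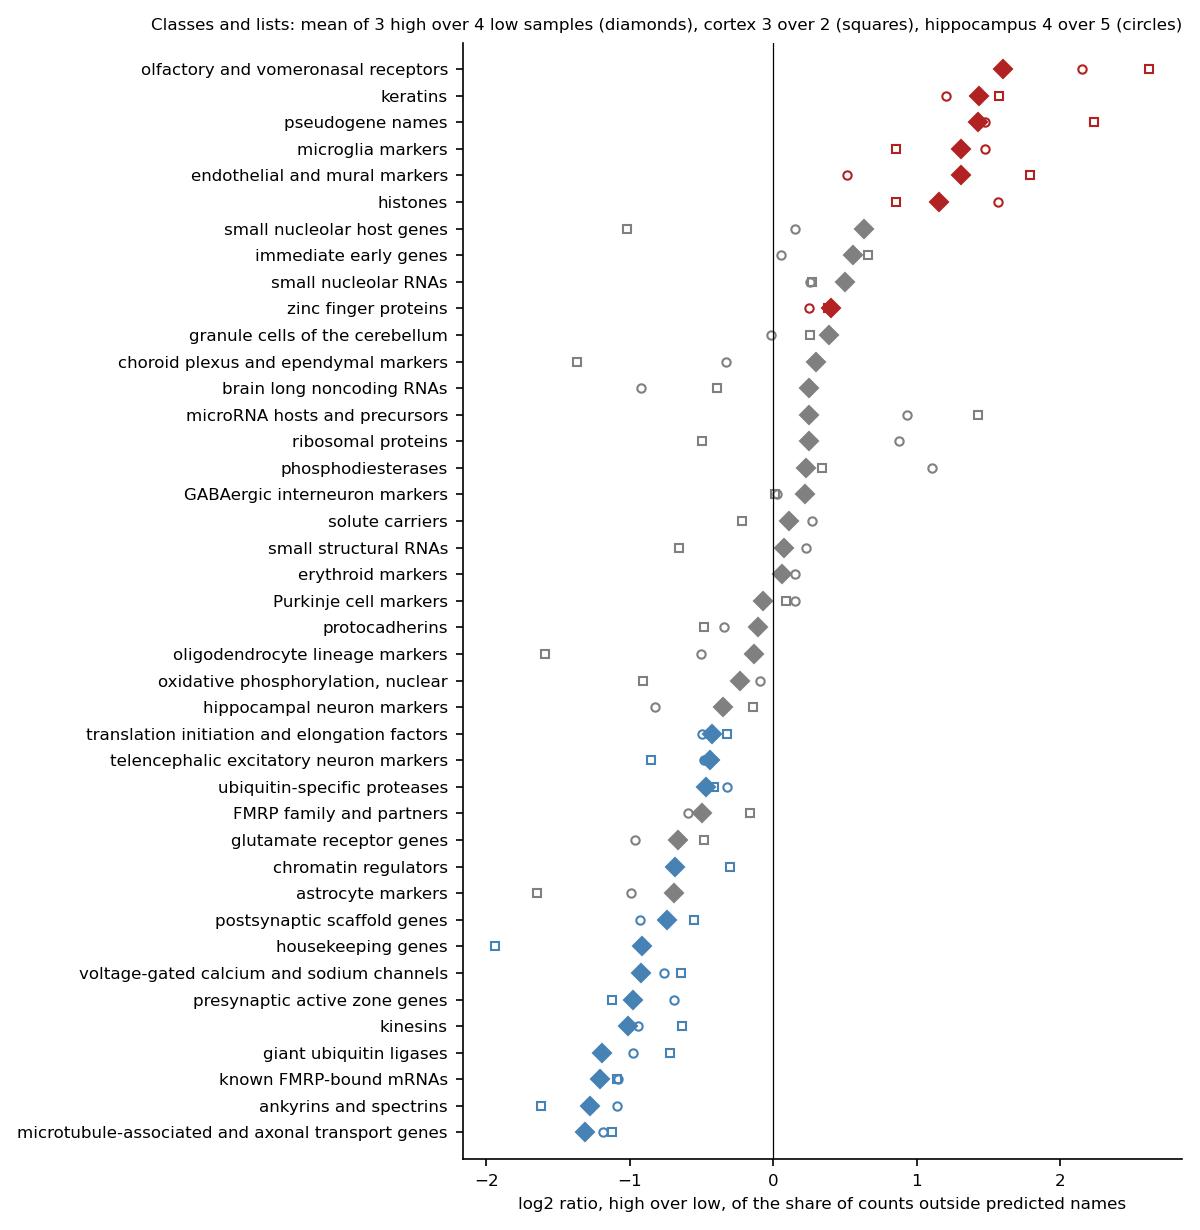
Log2 ratio, high over low, of the share of counts outside predicted names for 41 classes and lists. Diamonds compare the means of 3 high and 4 low samples (red above without overlap, blue below without overlap, grey overlapping). Open squares compare cortex 3 with cortex 2 and open circles hippocampus 4 with hippocampus 5. For the 20 coloured classes both pairs go the same way as the diamond by construction, because no high sample overlaps a low one.

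The known FMRP-bound mRNAs, a list of 80 long neuronal messages, held 3.91% of the counts outside predicted names in hippocampus 3, 5.45% in cortex 3 and 5.61% in hippocampus 4. They held 9.86% in hippocampus 1+2, 11.6% in cortex 2, 11.9% in hippocampus 5 and 12.8% in cortex 1. The mean share in the high samples was 0.433 times that in the low (4.99% against 11.5%), and the sets did not overlap. Within the title code shared by these pairs the ratio was 0.471 for cortex 3 over cortex 2 and 0.473 for hippocampus 4 over hippocampus 5. The pairs of 1 region and 1 code thus gave ratios close to that over all samples.

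Apc, a scaffold of Wnt signalling and a microtubule end binder, was the highest row of that list. It had 1765, 3503 and 5928 CPM of the counts outside predicted names in hippocampus 3, cortex 3 and hippocampus 4, and 11904, 8995, 8107 and 12540 CPM in cortex 1, cortex 2, hippocampus 1+2 and hippocampus 5. The sets did not overlap (3732 ± 2091 against 10387 ± 2166 CPM, SD, n = 3 and 4), and the log2 ratio was -1.47 with a pseudocount of 25 CPM, which applies to all log2 ratios of rows below. Map1b, which codes for a microtubule-associated protein of growing axons, had 1281, 2370 and 3712 CPM in the high samples and 5341 to 10052 CPM in the low (log2 ratio -1.70). Hippocampus 3 was the lowest sample for both genes.

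Of 10 kinesin rows that passed a filter on low values (a mean of at least 150 CPM and 50 counts in all), 4 were lower in the high set without overlap and 1 was higher. Among all 1044 rows that passed, 26.5% were lower and 0.862% higher. Kif1a, the kinesin that carries synaptic vesicle precursors, had 840, 2679 and 1718 CPM against 4573 to 5922 CPM (log2 ratio -1.66). The other kinesin motors Kif1b, Kif5a and Kif5c were likewise lower in every high sample, with log2 ratios of -1.36, -1.63 and -1.32. The 39 kinesin rows together held 0.525% to 1.03% in the high samples and 1.58% to 1.76% in the low. Kif21a, a kinesin that restrains microtubule growth, went the other way (263, 412 and 332 CPM against 113 to 249 CPM). When the 100 highest rows were left out of class and denominator, the ratio of the kinesin class turned from -1.01 to 0.29 on the log2 scale. Those 100 rows were picked by their mean CPM over the high and low samples together. Rows high in the low samples are thus more readily dropped, which moves ratios upward by construction. Under the same setting the ratio of ankyrins and spectrins turned from -1.28 to 0.32, with the same limit. Ank2, the ankyrin of axons, had 872, 2782 and 2327 CPM against 3706 to 6433 CPM.

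The microtubule-associated and axonal transport list as a whole held 1.13%, 2.10% and 2.13% in hippocampus 3, cortex 3 and hippocampus 4 against 3.58% to 4.84%, a ratio of 0.403. Map1a, a partner of Map1b in mature neurons, had the lowest log2 ratio of its 4 highest members (-1.82). Giant ubiquitin ligases held 0.370% to 0.979% against 1.38% to 1.94%, and Huwe1, the highest of them, had 725, 2061 and 1662 CPM against 2787 to 4887 CPM. Chromatin regulators held 0.701% to 1.12% against 1.38% to 1.62%, yet their 2 highest members overlapped: Chd3, a nucleosome remodeller, had 2061 CPM in cortex 3, above all low samples, and Kmt2d, a histone methyltransferase, spanned 735 to 927 CPM against 746 to 1079 CPM.

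The summed shares of presynaptic and postsynaptic genes were lower in the high set, while many single rows overlapped: 8 of 16 presynaptic rows above the filter, 7 of 23 postsynaptic scaffold rows and 1 of 8 glutamate receptor rows were lower without overlap, beside 26.5% of all rows. Presynaptic active zone genes held 0.573% to 0.654% in the high samples and 1.06% to 1.38% in the low, led by Bsn, a scaffold of the active zone, with 819, 1546 and 942 CPM against 2190 to 3037 CPM. Postsynaptic scaffold genes held 0.980% to 1.21% against 1.63% to 1.92%, and Shank1, a master scaffold of the postsynaptic density, had 1176, 927 and 942 CPM against 1423 to 2438 CPM. Dlg2, another scaffold, was lower too (log2 ratio -1.39), while Agap2 and Kalrn overlapped at log2 ratios of -0.79 and -0.44. Glutamate receptor genes overlapped between the sets (0.294% to 0.572% against 0.547% to 0.845%). Of 12 voltage-gated calcium and sodium channel rows above the filter, 5 were lower without overlap, beside 26.5% of all rows. Among the 5 were Cacna1e and Scn8a, pore subunits of a calcium and a sodium channel, with log2 ratios of -1.17 and -1.22.

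The genes at the centre of the study did not separate the sets. Pde2a, the phosphodiesterase that degrades cAMP and cGMP, had 84.0, 1236 and 554 CPM in hippocampus 3, cortex 3 and hippocampus 4 and 1501, 1082, 1200 and 448 CPM in cortex 1, cortex 2, hippocampus 1+2 and hippocampus 5. Its lowest value was in hippocampus 3, on 8 counts, while cortex 3 lay within the low range. Fmr1 had 42.0, 309 and 222 CPM in the high samples and 43.5 to 199 CPM in the low, on 3 to 9 counts per sample, so no difference was detectable at this depth. The 23 phosphodiesterase rows together overlapped (0.191% to 0.350% against 0.154% to 0.293%).

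**Figure D4:**
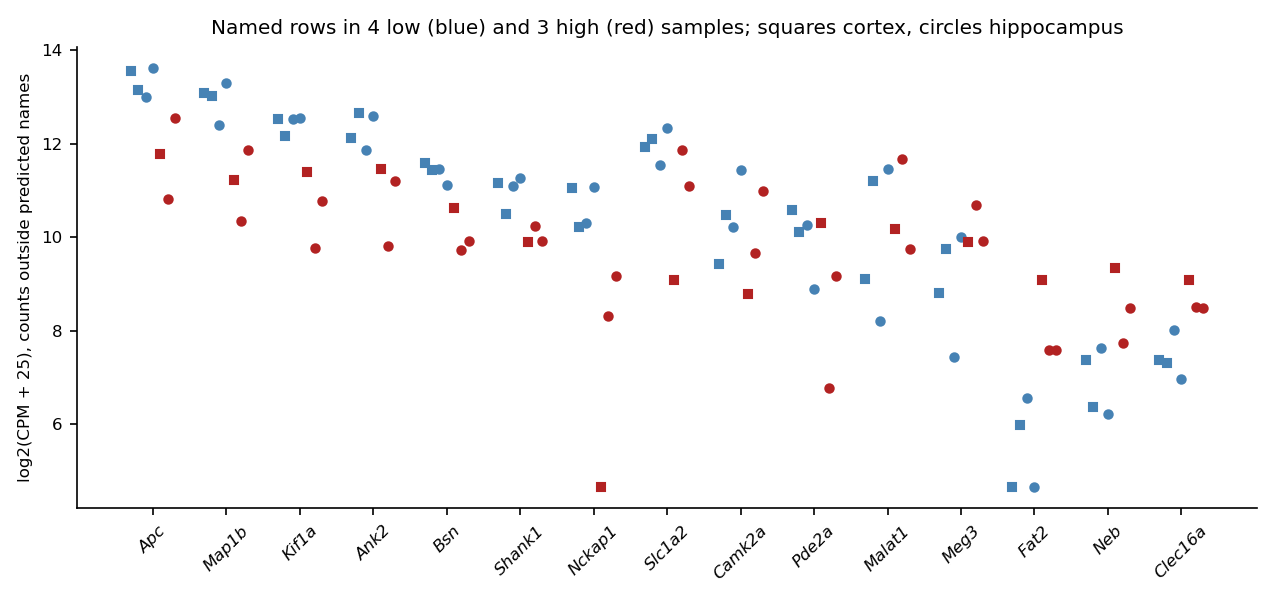
Level of 15 rows named in the text as log2(CPM + 25) of the counts outside predicted names, in 4 low (blue) and 3 high (red) samples, squares for cortex and circles for hippocampus. The left 7 rows are lower in all high samples, Fat2, Neb and Clec16a are higher in all, and the 5 between overlap.

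Row by row, 1044 rows outside predicted names had a mean of at least 150 CPM over the 7 samples and at least 50 counts in all. Of these, 277 were lower in all high samples than in all low ones, which is 26.5% of the rows tested, and 9 were higher, which is 0.862%. The median log2 ratio was -0.70, and 863 rows (82.7%) had a ratio below 0. The filter itself leans to this side: 373 of the 1044 rows had a mean under 150 CPM in the high samples and 30 had one in the low samples. With the filter set on the high samples alone, 145 of 700 rows (20.7%) were lower, 12 were higher and the median was -0.43. Without cortex 3, the shallowest library, 416 of 1093 rows were lower, and without hippocampus 4 or hippocampus 3 28 or 16 rows were higher. Sets of fewer samples separate more easily, so these counts are not comparable with the 277 and 9 rows. The tested rows took 27.3% to 31.7% of the counts outside predicted names in the high samples and 45.3% to 56.4% in the low.

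Of the 80 known FMRP-bound mRNAs 75 were tested; Arc, Lrp3, Rptor, Scn2a1 and Zfhx2 were below the filter. Of the 75, 42 (56.0%) were lower without overlap and 0 higher, with a median log2 ratio of -1.07, beside 26.5% and -0.70 over all rows tested. The share of lower rows also went with the level of a row. It was 18.2% of 666 rows between 150 and 300 CPM, 34.9% of 258 rows between 300 and 600 CPM, 51.7% of 89 rows between 600 and 1200 CPM and 64.5% of 31 rows above that. Level is the mean over the same high and low samples, so rows high in the low samples fall into higher bins. Counting error also makes overlap more frequent at low levels. Part of this rise is therefore built in. For the known FMRP-bound mRNAs the counts in the same bins were 4 of 11, 11 of 23, 11 of 21 and 16 of 20 (36.4%, 47.8%, 52.4% and 80%). The bins over all rows include these list rows, which made up 16 of the 20 lower rows above 1200 CPM. The part of level in the difference of the list was not tested.

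Among the rows of lowest ratio were Dopey2, Ap2a2, Mast1, Nsmf, Supt6, Arhgap33, Nckap1, Ptprf and Spire1, with log2 ratios from -2.64 to -2.42. Nckap1, a subunit of the WAVE actin regulator that binds the FMRP partner Cyfip1, had 294, 0 and 554 CPM against 1158 to 2140 CPM. Cyfip2, a second partner of that complex, was also lower (179, 824 and 665 CPM against 887 to 1431 CPM). The 9 rows from Dopey2 to Spire1 had 0 counts in cortex 3, where 67 of the 277 lower rows had none. Of the 9, Nckap1 alone had a mean of at least 150 CPM in the high samples, so the others passed the filter only through the low samples, where they were high, as did 132 of the 277 lower rows. In cortex 3, 1 count equals 103 CPM of the counts outside predicted names and the floor of 3 counts 309 CPM, so a level below that floor was not detectable there.

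The 9 higher rows were Neb, Hspg2, Clec16a, Fbxl19, Spred2, Mvb12b, Kif21a, Fras1 and Clip1, with log2 ratios from 0.67 to 1.64. Of these, 6 (all but Spred2, Mvb12b and Kif21a) had a mean under 150 CPM of all counts in the low samples and passed the filter only through the high samples, where they were high. With the filter set on the low samples alone, 3 of 1172 rows were higher. Neb, which codes for the giant muscle protein nebulin, had 189, 618 and 332 CPM in hippocampus 3, cortex 3 and hippocampus 4 and 49.8 to 174 CPM in the low samples. Hspg2, which codes for perlecan of basement membranes, had 231, 515 and 166 CPM against 75.9 to 149 CPM. Clec16a, a regulator of mitophagy, had 336, 515 and 332 CPM against 99.5 to 235 CPM. The values in cortex 3 rest on 3 to 6 counts each. With 0.862% of rows on this side, these 9 rows are few and are given as values only.

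Of the 7 classes that lay above, receptors of the nose and keratins are best known outside the brain. The 992 olfactory and vomeronasal receptor rows held 0.806% of the counts outside predicted names in hippocampus 3, 0.608% in cortex 3 and 0.443% in hippocampus 4, against 0.415% in hippocampus 1+2, 0.202% in cortex 1, 0.0995% in hippocampus 5 and 0.0987% in cortex 2. Over all counts, hippocampus 4 (0.365%, 95% interval 0.293% to 0.453%) and hippocampus 1+2 (0.366%, 0.335% to 0.400%) differed by less than their intervals, so the separation of these samples rests on the denominator. The receptor counts were scattered: of the 986 rows with an exon length, 529 had a count in hippocampus 3, on 764 counts together, and 52 in cortex 3, on 59 counts. Keratins, the filaments of epithelia and hair, held 0.107% to 0.161% against 0.0175% to 0.0697%. Names marked as pseudogenes held 0.111% to 0.141% against 0.0285% to 0.0809%, and histones 0.0412% to 0.0588% against 0.0149% to 0.0244%. These 3 classes rest on few counts in the shallow libraries. Histones had 4 counts in cortex 3 and 8 in hippocampus 4, against 7 in cortex 1 and 3 in hippocampus 5. In cortex 3 keratins had 11 counts and pseudogene names 13, against 5 and 12 in cortex 1. A few counts could therefore undo these separations. Zinc finger proteins, a class of 443 rows, held 1.84% to 2.23% against 1.33% to 1.77%. Over all counts the class overlapped (1.5045% to 1.81% against 1.24% to 1.65%), and their most abundant members, among them the hippocampal factor Zbtb20, overlapped.

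Marker lists of other cell types also moved. The 16 microglia markers together had 26, 3 and 5 counts in hippocampus 3, cortex 3 and hippocampus 4 (0.0273%, 0.0309% and 0.0277%) and 1 to 18 counts in the low samples (0.00349% to 0.0171%). P2ry12 was at 0 in cortex 3 and hippocampus 4, and Csf1r was at 0 in cortex 3. The 16 endothelial and mural markers had 64, 7 and 9 counts (0.0499% to 0.0721%) against 5 to 33 counts (0.0175% to 0.0348%), with Pecam1 at 0 in all 3 high samples and Cldn5 at 0 in cortex 3 and hippocampus 4. In bulk tissue, the number of cells of a type and the bound RNA per cell cannot be told apart, and the part of these lists in the other differences was not tested. The 17 granule cell markers of the cerebellum overlapped between the sets (0.133% to 0.139% against 0.0733% to 0.134%). Of the 4 most abundant members Reln, Cadps2 and Grin2c overlapped, with log2 ratios of -0.23, -0.46 and 0.33. Fat2, a giant cadherin of these cells, was higher in the high set (168, 515 and 166 CPM against 0 to 69.6 CPM), on 16, 5 and 3 counts, and was below the filter on low values. The granule markers Gabra6 and Cbln3 had 0 or 1 count in each of these 7 samples.

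Telencephalic excitatory markers held 0.381% to 0.459% in the high samples and 0.492% to 0.687% in the low, with Slc17a7, the vesicular glutamate transporter, at 630, 0 and 55.4 CPM against 149 to 698 CPM. Of 11 rows of that list above the filter, 0 were lower or higher without overlap, beside 26.5% lower and 0.862% higher over all rows tested. Their median log2 ratio was -0.40, beside -0.70 over all rows tested. Astrocyte, oligodendrocyte, interneuron, Purkinje, hippocampal, choroid plexus and erythroid lists overlapped between the sets. Housekeeping genes lay just below (0.216% to 0.34905% against 0.3491% and above), with the sets almost touching.

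The high samples also differed among themselves. Hippocampus 3 had the lowest share of known FMRP-bound mRNAs but had 3708 CPM of Slc1a2, the astrocyte glutamate transporter, within the low range of 2975 to 5126 CPM, while cortex 3 had 515 CPM. Malat1 and Meg3, nuclear long noncoding RNAs, had 3214 and 1628 CPM in hippocampus 3, above all other samples of both sets. In cortex 3 and hippocampus 4 they had 1133 and 831 CPM, and 927 and 942 CPM. Rn45s, the ribosomal RNA precursor, had 494 CPM in hippocampus 3 against 2061 and 2936 CPM in cortex 3 and hippocampus 4. Astrocyte markers ranged from 0.227% in cortex 3 to 0.690% in hippocampus 3, wider than the whole low range of 0.602% to 0.791%.

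In rows of 1 kb of exon and longer, the density of counts per kb varied least with length in the 3 high samples. Over the rows outside predicted names with an exon length in GENCODE (98.1% of them), the density in rows of 1 to 2 kb was 11.3, 10.5 and 10.4 CPM per kb in hippocampus 3, cortex 3 and hippocampus 4, and in rows above 12 kb it was 10.7, 13.3 and 12.9 CPM per kb. In the low samples the same bins had 4.03 to 6.39 and 16.9 to 20.9 CPM per kb. The ratio of the longest bin to the 1 to 2 kb bin was 0.945, 1.26 and 1.24 in the high samples and 5.18, 3.77, 4.35 and 2.65 in cortex 1, cortex 2, hippocampus 5 and hippocampus 1+2. At 6 to 8 kb all 7 samples lay between 10.1 and 10.6 CPM per kb. Rows shorter than 1 kb, which include small RNAs, were at 17.8 to 30.8 CPM per kb in the high samples and 14.5 to 19.7 in the low. Among the 1044 tested rows, the share lower without overlap was 5.26% of 19 rows at 2 to 3 kb, which is 1 row. It was 20.9% of 158 rows at 4 to 6 kb, 25.1% of 175 at 6 to 8 kb, 26.5% of 287 at 8 to 12 kb and 32.3% of 356 rows above 12 kb. The median log2 ratio varied little over these longer bins, at -0.69, -0.69, -0.73 and -0.73.

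**Figure D5:**
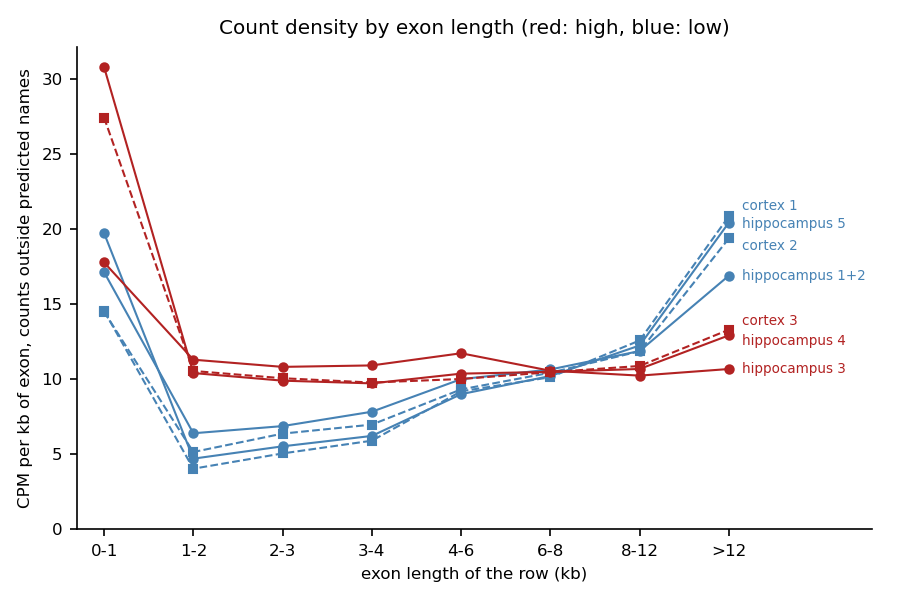
CPM of the counts outside predicted names per kb of exon, by exon length of the row, for 4 low (blue) and 3 high (red) samples; squares and dashed lines are cortex, circles and full lines hippocampus. From 1 kb on the high samples stay between 9.72 and 13.3, while the low samples climb from 4.03 to 6.39 at 1 to 2 kb to 16.9 to 20.9 above 12 kb.

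Set per kb, the known FMRP-bound mRNAs were 16.3, 29.9 and 42.3 times as dense as the olfactory and vomeronasal receptors in hippocampus 3, cortex 3 and hippocampus 4. In hippocampus 1+2, cortex 1, hippocampus 5 and cortex 2 they were 79.9, 214, 398 and 399 times as dense. All 3 high samples were below all 4 low ones, and every sample kept a density of known FMRP-bound mRNAs well above that of the receptors. The 3 libraries outside the selection gave the same measure at 71.5 and 70.0 in the cerebellum libraries, with 11.6% and 11.5% predicted names, and 57.5 in the library of conflicting labels, with 15.1%. These values lay between the high samples and hippocampus 1+2.

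Region was the contrast of the study and was not used to choose the sets, so it was tested over 3 cortex and 4 hippocampus samples, on shares of all counts. Predicted names held 10.2% ± 7.12 (SD, n = 3) in cortex and 13.8% ± 5.66 (SD, n = 4) in hippocampus, a difference within the spread (two-sided exact permutation test over 35 arrangements, p = 0.543). None of 42 shares passed an adjusted p of 0.05, and 0 had an unadjusted p under 0.05. The smallest p the design allows is 0.0286, so a single share could not pass the adjustment over 42 shares. The adjusted values therefore cannot show whether a single share differed between the regions. The known FMRP-bound mRNAs had 9.10% ± 4.06 (SD, n = 3) in cortex and 6.89% ± 3.64 (SD, n = 4) in hippocampus (exact permutation p = 0.514, adjusted p = 0.853). Hippocampal neuron markers and zinc finger proteins had the lowest p, and the same one. The markers were at 0.0706% ± 0.0140 (SD, n = 3) in cortex and 0.200% ± 0.0815 (SD, n = 4) in hippocampus (exact permutation p = 0.0571, adjusted p = 0.853), and zinc finger proteins at 1.36% ± 0.135 (SD, n = 3) and 1.68% ± 0.123 (SD, n = 4).

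By gene, edgeR's quasi-likelihood test called 0 of 429 rows between cortex and hippocampus (0% of rows tested). DESeq2 also called 0, and 12 rows had an unadjusted edgeR p under 0.05. Leaving out the 3 libraries of high share gave 0 of 877 rows, with 18 at an unadjusted p under 0.05 and 2 residual degrees of freedom. With the predicted share as a covariate the count was also 0. Zbtb20, a transcription factor of hippocampal neurons, was nearest, lower in cortex by a log2 fold change of -2.08 (SE 0.458, edgeR adjusted p = 0.134). Without the 3 high libraries its fold change was -2.28 (edgeR adjusted p = 0.194). It was lower in all 3 cortex samples than in all 4 hippocampus samples. With the title code as a block, edgeR called 3 rows lower in cortex: Zbtb20 (adjusted p = 2.6e-05), Camk2a, the dendritic kinase subunit (adjusted p = 0.0182), and Dock4, a Rac activator (adjusted p = 0.0225). The block fit left 3 residual degrees of freedom. Hippocampus 3 is the only forebrain sample of its title code, so it adds nothing to the region contrast in that fit. Pde2a had a log2 fold change of 0.93 (SE 0.574, edgeR adjusted p = 0.996), which became 0.35 without the 3 high libraries (adjusted p = 0.997).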

How the data were processed

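RNA fragments recovered with FMRP were counted per gene in 11 libraries. The authors deposited 1 table of whole-number counts per gene symbol. Mapping used Bowtie 0.12.7 to mm10, and Picard is listed, per the submitters' processing notes; the sources used here do not name the counting program, strand setting or treatment of duplicates. Reads of overlapping genes, paralogs and antisense partners may therefore be shared, and no molecular identifiers are described.

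The sets, classes and lists were chosen with earlier results of these data known. The table had 30986 rows, and 2 rows of 1 symbol were summed. Hippocampus 1 and 2 agreed within sampling noise (chi-square over degrees of freedom 1.03 in 1873 rows, p = 0.191; every other pair of forebrain libraries of 1 region exceeded 2.9) and were summed. Shares and CPM of rows outside predicted names use the counts outside predicted names; predicted rows use all counts. Rows were compared at a mean of at least 150 CPM and 50 counts in all, with a pseudocount of 25 CPM. "Lower" or "higher" between the sets means no overlap between samples. RefSeq (GRCm38.p6) gave biotypes and positions for 94.0% of rows, and GENCODE vM21 (GRCm38, the assembly of mm10) exon lengths. Patterns for antisense names and immunoglobulin segments caught unrelated genes and were not used.

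Regions were compared with edgeR 4.0.16 in R 4.3.3 (TMM, filterByExpr, quasi-likelihood test, Benjamini-Hochberg adjustment), with DESeq2 1.42.0 as an alternative, and class shares with exact permutation tests in Python 3.11.15. The edgeR steps were tested on simulated data. Named rows were the 10 highest and 10 lowest log2 ratios among rows without overlap that went the same way in both pairs of 1 region and title code, the 10 predicted rows highest in the high set, Pde2a, Fmr1, Apc, Map1b and Kif1a, up to 4 most abundant members of each class, and genes called between regions; 1 row that this rule names is not reported here. Alternatives were other denominators, filters, pseudocounts, definitions and sample choices.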

Additional observations from a re-analysis of the deposited data

Results flagged for a closer look

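Across the 42 shares checked in the 4 hippocampus samples, 2 had a single sample far from the other 3; chance alone marks about 1 in 20 such groups. Small nucleolar RNA host genes held 0.00844% of all counts in hippocampus 1+2, against 0.0228% to 0.0247% in the other 3 hippocampus samples. Erythroid markers held 0.00682% in hippocampus 3, against 0.00456% to 0.00464% in the others. The erythroid value rests on 8 counts in hippocampus 3 and 1 to 6 counts in each of the others.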

How the results depend on the processing

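The 277 lower and 9 higher rows and their median of -0.70 depended on the filter and the samples, while the median stayed below 0 in every alternative run. All counts as the denominator gave 4 higher rows and a median of -0.85; without the 100 highest rows 4 were higher. A filter of 300 CPM gave 156 lower and 0 higher rows and a median of -0.91, a pseudocount of 100 a median of -0.56, and the filter on the low samples alone 3 higher rows; on the high samples alone (both chosen after seeing the data) 145 were lower, with a median of -0.43. Within the title code of the same-region pairs, 171 of 239 rows were lower and 3 higher. The median was -0.98 and 20 classes lay below. This setting holds only cortex 3 and hippocampus 4 against cortex 2 and hippocampus 5. Fewer samples separate more easily, so its counts, like those with a sample left out, are not comparable with 277 and 9. Medians were -1.07 for the cortex pair and -1.16 for the hippocampus pair, which cannot give an overlap. Without both hippocampus 1 and 2 (chosen after seeing the data) 4 rows were higher and the median was -0.84. With the library of conflicting labels placed in the high set, 4 were higher and the median was -0.56. Leaving out 1 library at a time gave 240 to 416 lower rows (416 without cortex 3), 5 to 28 higher rows (28 without hippocampus 4, 16 without hippocampus 3, 15 without hippocampus 5, 5 without hippocampus 1) and medians of -0.80 to -0.67.

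The log2 ratio of the known FMRP-bound share, -1.21, was -1.39 over all counts and -0.93 without the 100 highest rows, with -1.30 to -1.06 when 1 library was left out. Of 460 class values under alternatives, 412 moved by less than 1 SD of the low samples, 46 moved by more in the same direction, and 2 reversed, both without the 100 highest rows: kinesins to 0.29 and ankyrins and spectrins to 0.32. Between regions, edgeR called 0 rows in every alternative run except the title code as a replicate block, which called 3; no label calls the code a batch. Depth limits single rows in cortex 3 most, where 3 counts equal 309 CPM of the counts outside predicted names.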

Other observations

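The library whose title names cortex and whose tissue label names hippocampus was in no comparison between regions. It held 30344 counts, with 15.1% on predicted names, just above the 15% used to separate the sets. Its known FMRP-bound mRNAs held 7.16% of the counts outside predicted names, between the high samples (3.91% to 5.61%) and the low (9.86% to 12.8%). It had 6935 rows at an equal depth of 11898 counts, again between the sets, and a density ratio of the longest to the 1 to 2 kb rows of 1.55. Its hippocampal neuron markers held 0.0699%, on 18 counts, and Prox1, a dentate granule factor, had 2 counts.

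The cerebellum libraries, with 11.6% and 11.5% predicted names, had 6154 and 6360 rows at equal depth and a density ratio of 2.92 and 2.61, near hippocampus 1+2 at 6302 rows and 2.65. Their small nucleolar RNAs (0.0415% and 0.0550% of the counts outside predicted names) were nearer to the s samples of forebrain than to the p samples, and both titles start with s.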
